A study of Homo sapiens with 6 samples.

Results

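The 39 genes described here encode the SR and TRA2 proteins, the hnRNP proteins, the PTBP proteins and the RNA helicases DDX5 and DDX17, which choose splice sites and package nuclear RNA. They are the genes of these families, taken by name out of 19987 protein-coding genes. The list was chosen with earlier results of these data known. It holds 12 SR genes, 2 TRA2 genes, 20 hnRNP genes, 3 PTBP genes and 2 helicase genes. The measurement was chromatin immunoprecipitation and sequencing (ChIP-seq) with a V5 antibody in HepG2-TAF2-V5, a clone of the human liver cancer line HepG2 that carries V5-tagged TAF2. There were 3 V5 libraries and 3 control libraries of the same clone, with no drug, dose or time in the labels. The labels disagree on the controls, which are input by treatment and title but IgG by library name, and no peak list of theirs was analysed here, so no control background stands beside the values. All libraries came from 1 clone, and the labels do not say whether the replicates were separate cultures.

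The V5 lists on GRCh38 numbered their peaks 1599, 2557 and 1887 in replicates 1, 2 and 3. They carry no read totals, so the depth is unknown. The fold of a peak is the authors' enrichment over their background. It served only to rank a peak within its own list, as a percentile at which the middle peak of each list stands at 50. As a weak check of the labelled cell type, 7 of 12 hepatocyte marker genes had a peak in at least 2 libraries. So did 1 of 6 blood, 1 of 6 stromal and 0 of 4 neuronal markers, and 3.76% of all protein-coding genes. The hepatocyte markers ALB, TTR, FGB and FOXA2 had no peak in any library. A peak does not measure expression. Distances are counted from the outer 5′ end of a gene's RefSeq span, called its start here; at 32 of 36 members this is also a start listed in the RefSeq promoter table, and at HNRNPF, DDX5, PTBP2 and PTBP3 it is not.

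SR proteins carry an RNA recognition domain and a domain rich in arginine and serine, and commonly help the spliceosome to recognise an exon. Many hnRNP proteins oppose them by covering silencer sequences, and several genes of both kinds control their own transcripts through an exon that leads to RNA decay. TAF2 belongs to TFIID, the general factor that marks core promoters for RNA polymerase II and touches the initiator sequence at the start of transcription.

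Peaks over a RefSeq promoter window, from 250 bases before an annotated start to 50 after it, were present in at least 2 libraries at TRA2B, SRSF3, HNRNPF and HNRNPLL. These 4 promoters are shown because they are the sites where the peaks met an annotated start. The sequences are those of RefSeq (GRCh38.p14), cut here at 10 bases after the start and written 5′ to 3′. Capitals mark matches on either strand to the TATA box TATAAA, the CCAAT box CCAAT, the GC box GGGCGG and the ETS core TTCCGG.
TRA2B, chr3:185938005-185938264, minus strand: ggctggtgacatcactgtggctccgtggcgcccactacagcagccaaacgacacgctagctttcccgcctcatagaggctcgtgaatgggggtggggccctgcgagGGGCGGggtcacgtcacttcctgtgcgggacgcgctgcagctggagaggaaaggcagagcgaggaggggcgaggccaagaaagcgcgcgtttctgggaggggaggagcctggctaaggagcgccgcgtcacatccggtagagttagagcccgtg
SRSF3, chr6:36594112-36594371, plus strand: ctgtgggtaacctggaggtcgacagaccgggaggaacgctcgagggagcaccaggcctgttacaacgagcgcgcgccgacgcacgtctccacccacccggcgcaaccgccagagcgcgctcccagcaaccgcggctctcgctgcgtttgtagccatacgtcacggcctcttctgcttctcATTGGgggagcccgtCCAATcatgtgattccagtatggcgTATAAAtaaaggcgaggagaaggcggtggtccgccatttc
HNRNPF, start inside the gene, chr10:43397268-43397527, minus strand: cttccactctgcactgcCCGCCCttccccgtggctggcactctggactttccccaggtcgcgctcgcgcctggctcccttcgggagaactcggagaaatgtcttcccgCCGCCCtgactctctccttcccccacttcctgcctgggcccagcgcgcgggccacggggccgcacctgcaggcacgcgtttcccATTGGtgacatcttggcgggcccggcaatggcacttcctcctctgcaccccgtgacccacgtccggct
HNRNPLL, chr2:38602919-38603178, minus strand: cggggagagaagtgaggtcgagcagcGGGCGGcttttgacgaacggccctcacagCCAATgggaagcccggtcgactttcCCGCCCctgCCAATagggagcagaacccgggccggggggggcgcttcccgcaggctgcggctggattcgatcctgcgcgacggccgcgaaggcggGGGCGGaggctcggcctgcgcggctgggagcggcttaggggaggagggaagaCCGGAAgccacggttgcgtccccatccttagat
The windows at TRA2B, SRSF3 and the inner start of HNRNPF had peaks of 3 libraries, and that at HNRNPLL of replicates 1 and 3. In SRSF3 the peak of replicate 2 began 11 bp past the start and so met the last part of the window only. Counted from the annotated start, with the base before it as -1, the TATA box of SRSF3 began at -30 and its CCAAT boxes at -55 and, on the opposite strand, at -70. TRA2B had 1 match in this window, a GC box at -144, and its window held none of the other motifs. In the HNRNPF window GC boxes on the opposite strand began at -233 and -142 and a CCAAT box at -58. HNRNPLL held GC boxes at -224, -170 and -75, CCAAT boxes at -195 and -161 and an ETS core at -23. No matches overlapped in these 4 sequences. Of 22156 promoters of protein-coding genes cut to the same 260 bases, 9.15% held a TATA box, 33.2% a CCAAT box, 54.2% a GC box and 19.1% an ETS core. Among 53 promoters of the 36 members in the promoter table, 7, 23, 34 and 12 held these motifs. The dinucleotide CA across the start, the core of the initiator, was present in 17 of the 53 and in 7981 of the 22156. TRA2A, SRSF2 and HNRNPA1 had no entry in the promoter table, which also gave the strand.

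Peaks over a gene or within 1000 bp of it were found in at least 2 libraries at 12 of the 39 genes (30.8%), against 3.76% of all protein-coding genes called by the same rule. Those 12 were TRA2B, SRSF3, DDX5 and 9 hnRNP genes. In 3 libraries there were 10 (25.6%), against 1.90% of all genes, and in any library 21 (53.8%), against 8.67%. The members were chosen with earlier results of these data known, so the distance from these shares is a description and not a test. Longer genes offer more room for a peak. The members had a median span of 14861 bp against 24140 bp over all genes. Among the 16021 protein-coding genes in the span range of the members, 3297 to 162168 bp, 3.55% were called in at least 2 libraries and 1.71% in 3. By span, 0 of 3 members up to 5000 bp were called, against 1.51% of genes that long, and 1 of 9 over 5000 and up to 10000 bp, against 2.28%. Of the 11 members with spans over 10000 and up to 20000 bp, 5 were called, against 2.92% of genes that long, and of 13 over 20000 and up to 50000 bp, 5 were called, against 3.36%. Of 3 over 50000 bp, 1 was called, against 6.23%.

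By library, replicate 1 had peaks at 14 members (35.9%, against 3.70% of all genes), replicate 2 at 17 (43.6%, against 5.75%) and replicate 3 at 12 (30.8%, against 4.87%). The families differed in count. In at least 2 libraries, 9 of 20 hnRNP genes (45.0%) and 1 of 12 SR genes (8.33%) were called, against 3.76% of all genes. So were 1 of 2 TRA2 genes, 1 of 2 helicase genes and 0 of 3 PTBP genes, families too small to set beside that share. A peak in any library was found at 4 of 12 SR genes (33.3%), against 8.67% of all genes. The difference between families was not tested. The call does not ask that the peaks of different libraries lie at the same place. Peaks that overlapped between libraries were found at 9 members, against 3.27% of all genes, and HNRNPR, HNRNPH3 and DDX5 were called without any such overlap.

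**Figure D1:**
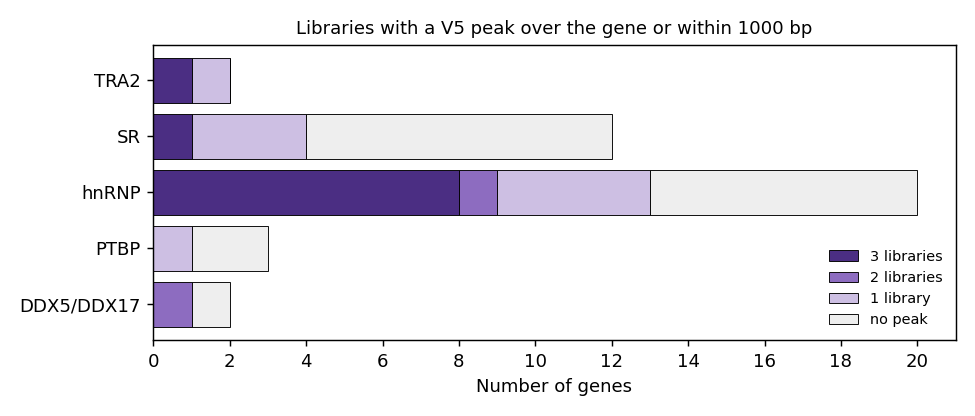
Number of genes of each family (horizontal axis) by the number of V5 libraries with a peak over the gene or within 1000 bp. The hnRNP row holds 8 of the 10 genes with a peak in 3 libraries, and 8 of 12 SR genes had no peak. The other 4 SR genes (33.3%) had a peak in at least 1 library, against 8.67% of all protein-coding genes.

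Together the members had 35.7 ± 3.51 peaks per library (SD, n = 3), with 32 in replicate 1, 36 in replicate 2 and 39 in replicate 3, or 2.00, 1.41 and 2.07% of the lists. TRA2B and HNRNPF held 36 of these 107 peaks. The peaks were somewhat wider than all peaks of their lists, with median widths of 281, 298.5 and 266 bp against 220, 224 and 224 bp. As a group they did not rank high: their median fold percentile was 54.8, 54.4 and 54.0 in replicates 1, 2 and 3, and without TRA2B and HNRNPF its mean over the libraries was 49.6. Ranked by -log10 q the mean of the medians was 48.2. The share of member peaks that overlapped a peak of another library was 68.8, 58.3 and 69.2%, against 70.0, 52.0 and 63.6% of all peaks. Merged across libraries wherever they overlapped, the peaks formed 56 regions, and 14 of those were found in 3 libraries, 5 in 2 and 37 in 1. Merging could run in a chain, so a region of 3 libraries need not hold a base common to all 3. The same count over all peaks is not given here.

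**Figure D2:**
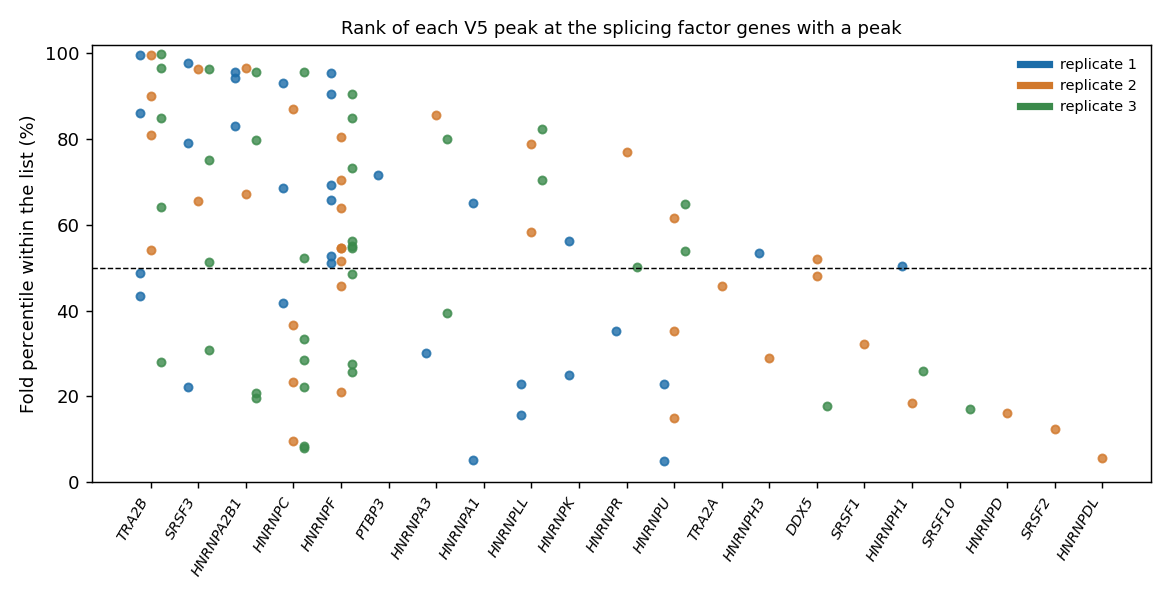
Fold percentile of each V5 peak within its own list (vertical axis) for the 21 splicing factor genes with a peak, in order of the mean percentile of their strongest peak; each point is a peak, coloured by library, and the dashed line is the middle of the list at 50. The strongest peaks of TRA2B, SRSF3 and HNRNPA2B1 stood above 95 in each library, while the same genes also held peaks below 50.

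TRA2B, which encodes a splicing activator close to the SR proteins, had the highest-ranked and widest peaks of the set. Its strongest peak had authors' folds of 14.3, 14.8 and 15.8 in replicates 1, 2 and 3 and ranked 9 of 1599, 13 of 2557 and 5 of 1887. That peak was 6549, 7383 and 7441 bp wide. It was the widest peak of the list in replicates 1 and 3, and the second widest in replicate 2. Its mean fold percentile was 99.6 ± 0.16 (SD, n = 3).

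The wide peak of TRA2B lay in the 5′ part of the gene. In replicate 1 it ran from 444 to 6992 bp past the annotated start and in replicate 2 from 370 to 7752 bp, and in each of these a separate narrow peak covered the start. In replicate 3 a single peak ran from -177 bp, before the start, to 7263 bp past it. Summits stood 3751, 3473 and 2367 bp into the gene. Further peaks reached 10845 bp into the gene in replicates 1 and 3 and 9670 bp in replicate 2, and all ended before the middle of the span. The total width of the TRA2B peaks was 9831, 8893 and 9426 bp, a mean of 9383 ± 470.5 bp, equal to 40.0% of its 23457 bp span on chromosome 3 (185914558 to 185938014). By this total, TRA2B ranked 3 among all protein-coding genes. Its relative TRA2A had 1 peak, in replicate 2 only, with a fold of 5.11 at percentile 45.8.

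SRSF3, which encodes the smallest SR protein, was the only SR gene called in more than 1 library. Its strongest peak had folds of 9.20, 9.23 and 8.84 and percentiles of 97.6, 96.3 and 96.3 in replicates 1, 2 and 3. These peaks ranked 39, 96 and 70 in their lists. Summits stood 1182, 1104 and 1331 bp past the start, with peak widths of 1085, 1586 and 919 bp. A second region, between 1831 and 2619 bp into the gene, also held peaks of 3 libraries. Replicates 1 and 3 had in addition a weaker peak across the start, at percentiles 22.3 and 51.4. In replicate 2 the strongest peak itself began 11 bp past the start. SRSF3 spans 11239 bp on chromosome 6 (36594362 to 36605600), and its farthest peak ended 3394 bp past the start.

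The other SR genes had few peaks or none. SRSF1, the prototype of the family, had a peak in replicate 2 only, with a fold of 4.67 at percentile 32.1 and its summit 308 bp before the start. SRSF2 had a peak in replicate 2 (fold 4.06, percentile 12.5), within 1000 bp of the microRNA gene MIR636. SRSF10 had a peak in replicate 3 (fold 4.09, percentile 17.0), 2157 bp into the gene. All 3 were in the lower part of their list. SRSF4, SRSF5, SRSF6, SRSF7, SRSF8, SRSF9, SRSF11 and SRSF12 had no peak in any list.

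Among the hnRNP genes, HNRNPA2B1 ranked highest. It encodes a pair of abundant proteins that bind nuclear RNA and take part in its sorting and splicing. Its strongest peak had folds of 8.39, 9.30 and 8.47 in replicates 1, 2 and 3, a mean percentile of 95.9 ± 0.52 (SD, n = 3). Summits stood 2147, 2346 and 2556 bp into the gene. All but 1 of its 9 peaks merged into a region of 3030 bp, from 47 bp before the start to 2982 bp past it (chromosome 7, 26197764 to 26200793). The start itself was covered in replicate 3 only, by a peak at percentile 20.8. That peak and another of replicate 3, 887 bp before the start, also lay within 1000 bp of CBX3, a gene for a heterochromatin protein that begins nearby.

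HNRNPC encodes a protein that binds runs of uridine and coats nascent transcripts. Its strongest peak had folds of 7.66, 7.34 and 8.53 at percentiles 93.0, 87.0 and 95.7 in replicates 1, 2 and 3. Its bounds nearly coincided between libraries, with widths of 2062, 1855 and 1855 bp, and its summits stood 1572, 2070 and 1898 bp into the gene. Regions of 3 libraries followed at 2529 to 3064 bp and at 4778 to 5246 bp. A peak over the start appeared in replicate 3 only, at percentile 33.4. No peak lay beyond 7315 bp, although the gene spans 60296 bp.

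HNRNPF, whose protein binds runs of guanine, had the most peaks of the set, 6, 8 and 9 in replicates 1, 2 and 3, and ranked 9 among all protein-coding genes by total number. They were spread from 1283 bp to 13692 bp into the gene as counted from the end of the span. Its outermost listed start lies 329 bp inside that end, and the summits nearest to it, in replicates 1 and 3, both stood 1030 bp past it. Its strongest peak had folds of 8.36, 6.66 and 7.28 at percentiles 95.3, 80.5 and 90.6. The summit stood 2280 bp into the gene in replicate 1, 2269 bp in replicate 2 and 1359 bp in replicate 3. The widest region shared by 3 libraries ran from 1960 to 3554 bp. Another region of 3 libraries, at 11717 to 12168 bp, is the one that met the inner start whose sequence is given above, with percentiles of 51.1, 64.0 and 55.1.

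HNRNPU, which encodes a scaffold protein of nuclear RNA and chromatin, had 2 regions of 3 libraries, at 1209 to 1580 bp and 2216 to 2630 bp into the gene. The ranks of its strongest peak were apart, with percentiles of 22.9, 61.5 and 64.8 in replicates 1, 2 and 3. HNRNPLL, known for its part in the splicing of CD45 in T cells, had a region of 3 libraries at 2627 to 3215 bp. The peaks there stood at percentiles 15.7, 78.8 and 70.5. At its start, peaks of replicates 1 and 3 stood at 22.8 and 82.2, with no peak of replicate 2. In both genes replicate 1 was the lowest.

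HNRNPA3, which encodes a relative of hnRNP A1, had a peak of replicates 2 and 3 at 1097 to 1351 bp, at percentiles 85.5 and 80.0. The peak of replicate 1 lay apart from it, with its summit 887 bp into the gene and a percentile of 30.0. HNRNPH1, whose protein binds runs of guanine as hnRNP F does, had a peak in each library deep in its span. The peaks of replicates 1, 2 and 3 lay 12260 to 12785 bp into the gene, at percentiles 50.3, 18.5 and 26.0. The peak of replicate 2 overlapped those of replicates 1 and 3, which did not overlap each other. RefSeq lists a start inside the gene at 179623401 on chromosome 5, and the summits stood 1389, 1154 and 884 bp past it. All 3 peaks also lay within 1000 bp of the annotated gene LOC128966623. HNRNPR, an RNA-binding protein gene, had 1 peak in each library, at 4496, 2500 and 1447 bp, with no overlap and percentiles of 35.3, 77.0 and 50.1. HNRNPH3 had a peak in replicate 1, 1645 bp into the gene (percentile 53.5), and a different one in replicate 2, at 258 bp (29.0). The calls at HNRNPR and HNRNPH3 therefore rest on no shared site.

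Peaks in 1 library were found at HNRNPA1, HNRNPK, HNRNPD and HNRNPDL. HNRNPA1, whose protein represses exons through silencer elements, had 2 in replicate 1, with folds of 5.49 and 3.43 at percentiles 65.1 and 5.2. The weaker of them lay at the lower annotated end of the gene and within 1000 bp of CBX5. HNRNPK, whose protein binds runs of cytosine, had 2 in replicate 1, with folds of 5.19 and 4.26 at percentiles 56.2 and 25.1. HNRNPD, which acts in decay of AU-rich mRNAs, and HNRNPDL had a peak at the start in replicate 2, with folds of 4.15 and 3.67 at low percentiles of 16.1 and 5.5. Both of these lay within 1000 bp of another gene, HNRNPD-DT and ENOPH1. HNRNPA0, HNRNPAB, HNRNPH2, HNRNPL, HNRNPM, HNRNPUL1 and HNRNPUL2 had none.

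The PTBP genes encode proteins that bind pyrimidine tracts and repress exons. PTBP3 had a peak in replicate 1 only, 46132 bp into its span and at -724 bp from its only listed start, on the upstream side, with a fold of 5.74 at percentile 71.6. PTBP1 and PTBP2 had none. Of the DEAD-box helicase genes, DDX17 had none. DDX5 had 2 peaks in replicate 2 at its 5′ end, 71 and 573 bp past the end of the span (percentiles 52.1 and 48.0). Their summits stood at -157 and -4 bp, just before 2 listed starts, and both peaks lay within 1000 bp of CEP95. In replicate 3 its only peak lay beyond the 3′ end, 9686 bp from the start of a gene that spans 8613 bp, at percentile 17.7 and within 1000 bp of MILR1 and POLG2.

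**Figure D3:**
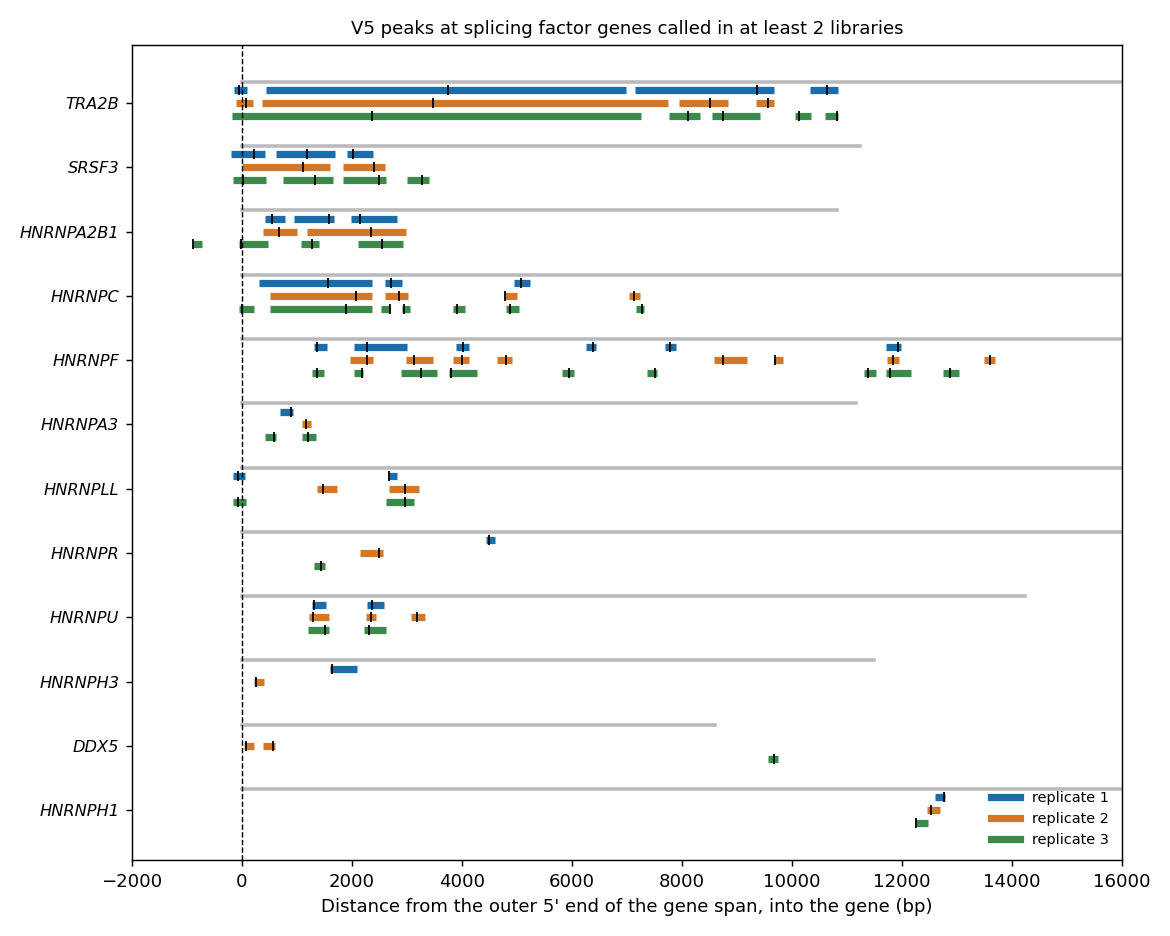
V5 peaks at the 12 genes called in at least 2 libraries, by distance from the outer 5′ end of the span into the gene (horizontal axis, bp); coloured bars are peaks of each library, black ticks their summits, and grey lines the gene spans, cut where the axis ends. Most peaks lie to the right of the start, and the TRA2B peak is 6549 bp wide or wider in every library.

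Most of these peaks lay inside the gene, past the start. Of the 103 peaks at members with known strand, 83 had their summit inside the gene and more than 1000 bp from either end, 19 within 1000 bp of the start, 1 outside and 0 within 1000 bp of the 3′ end. A majority inside the gene was the general pattern. Of member peaks 80.6% lay inside and 18.4% at the start, against 67.6 and 27.5% at protein-coding genes with known strand in the members' span range. At members called in at least 2 libraries the shares were 82.3 and 16.7%, against 72.7 and 22.7% at genes of the range called in at least 2 libraries. Summits lay between 1001 and 5000 bp into the gene in 17 of 30 peaks of replicate 1 (56.7%), 18 of 34 of replicate 2 (52.9%) and 21 of 39 of replicate 3 (53.8%). At all protein-coding genes with known strand in the same span range, the members included, the shares were 30.8, 24.9 and 25.4%. The limits of 1001 and 5000 bp were chosen after the positions were seen. The members have a median span of 14861 bp, against 24904 bp over all 16021 genes of the range, with or without known strand or a peak. Shorter genes leave less room beyond 10000 bp. The median span of the genes behind these shares is not given here. Among summits from -1000 to 5000 bp alone, 77.3, 69.2 and 77.8% of the members' lay past 1000 bp, against 57.6, 49.8 and 42.6% at all genes of the range. Without TRA2B and HNRNPF, 62.7% of the remaining 67 member peaks had their summit from 1001 to 5000 bp. The nearest start in the promoter table was also used, an alternative chosen after the data were seen. In replicates 1, 2 and 3, 53.3, 58.8 and 53.8% of member summits lay from 1001 to 5000 bp past that start. At genes of the range the shares were 32.6, 25.6 and 25.4%. Pooled over libraries, 27.2% of member summits lay within 1000 bp of it, against 32.5%. By library these shares were 30.0, 26.5 and 25.6%, against 27.7, 28.9 and 40.3%, so replicate 1 went the other way. Peaks that covered a listed start made up 13.3, 20.6 and 15.4% of member peaks, against 9.51, 9.70 and 17.7%. Peaks of a gene share its chromatin and the libraries share a clone, so these shares are a description and carry no test.

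**Figure D4:**
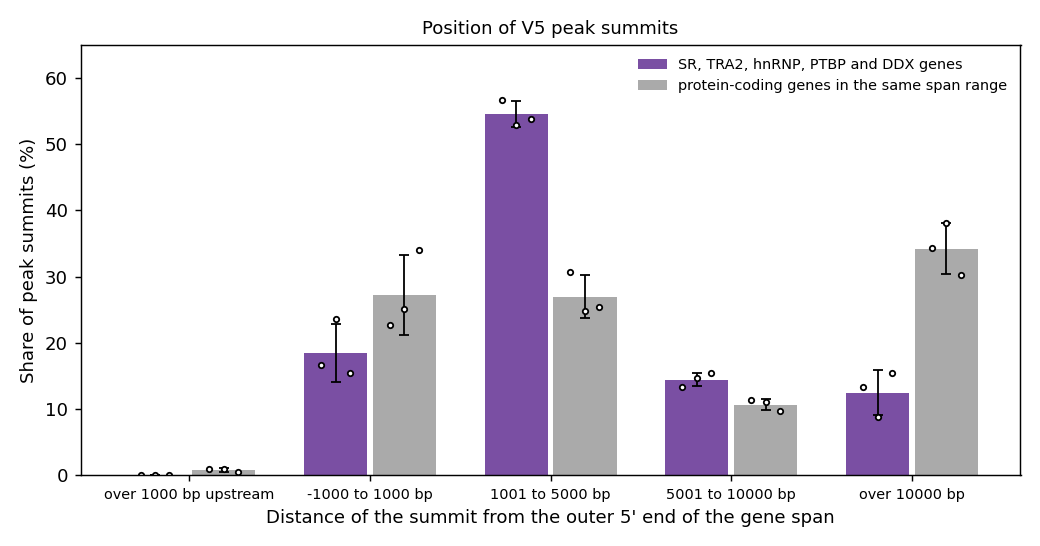
Share of V5 peak summits (vertical axis, %) by distance from the outer 5′ end of the span. Splicing factor genes and all protein-coding genes in the same span range are shown, both with known strand only. Bars are means of 3 libraries, error bars SD, and points single libraries. From 1001 to 5000 bp the splicing factor genes stand at 54.5 ± 1.94% and the comparison genes at 27.0 ± 3.28%.

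Members also had peaks near the start. A peak within 1000 bp of the start was present in at least 2 libraries at 6 of 36 members (16.7%), against 1.18% of protein-coding genes with known strand. These were TRA2B, SRSF3, HNRNPA2B1, HNRNPC, HNRNPA3 and HNRNPLL. With any start of the promoter table there were 8. With a window of 250 bp, or with the start itself covered, there were 3: TRA2B, SRSF3 and HNRNPLL. The shares of all genes under these settings are not given here. Summits within 250 bp of the start numbered 3 of 30, 4 of 34 and 4 of 39 at the members, against 83 of 715, 159 of 1062 and 197 of 927 at genes of the same span range. Of 40 strongest peaks of a gene in a library, 27 (67.5%) had the summit from 1001 to 5000 bp and 8 (20.0%) within 1000 bp of the start, against 22.6 and 33.3% of 1772 such peaks at genes of the span range. Whether these peaks fall in exons or introns was not determined here, since the gene table gives no exons.

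Other genes of splicing, from a list of 96, had peaks too. At least 2 libraries had a peak at 12 of them (12.5%), against 3.76% of all protein-coding genes and 30.8% of the members. The difference between the lists was not tested. Without replicate 2 the count was 6 of 96, against 2.26% of all genes. Overlapping peaks of at least 2 libraries were found at 6 of 96, against 3.27% of all genes. Core spliceosome genes made up 3 of the 12, out of 49 (6.12%). Of these, 2 had peaks in 3 libraries, LUC7L3, a partner of the U1 particle (mean percentile of the strongest peak 52.4 ± 32.5, SD, n = 3), and DHX8, the helicase that releases spliced mRNA (55.9 ± 26.0). SF3B1, of the branch-site complex, had peaks in 2. Other regulators made up 9 of 47 (19.1%). Of those, SON, a scaffold of nuclear speckles, had its strongest peak 1736, 1668 and 2308 bp into the gene in replicates 1, 2 and 3, at 73.8 ± 7.25. MATR3, a nuclear matrix protein gene, had 7, 8 and 13 peaks, the strongest at 79.1 ± 13.0, and stands apart by their number. SFPQ, of paraspeckles (42.7 ± 13.8), and RBM39, a relative of the splicing factor U2AF2 (46.1 ± 17.8), also had peaks in 3 libraries, and those with peaks in 2 included RALY, SYNCRIP, SRRM2 and PNN.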

How the data were processed

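The values come from the peak lists of 3 V5 libraries. Per the labels the build was GRCh38. An aligner, a peak caller and its settings were not given in the sources used here. In the narrowPeak layout of the deposited lists, the authors' fold is a linear ratio over background, the deposited -log10 p and -log10 q are those of the authors' caller, and the deposited score is 10 times -log10 q cut to a whole number. The score and p were not used. No read counts are given.

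A gene was called with a peak overlapping its RefSeq span (GRCh38.p14) or the 1000 bp either side by at least 1 bp in at least 2 libraries, and the same rule was applied to all 19987 protein-coding genes on sequences with peaks. Strand and the listed starts came from the RefSeq promoter table, which held 36 of 39 members and 15813 of the protein-coding genes. Distances were counted from the outer 5′ end of the span, which is not always a listed start. Only the V5 group has peak lists here, so no test between groups was made. The authors' fold was ranked within each list, with ties averaged.

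The members and lists were chosen with earlier results of these data known. Members with a peak in 2 or more libraries were named with values in each library, those with 1 by fold and percentile, and other splicing genes with values where 3 libraries had a peak. Some items that fall under this rule are not reported here. Alternatives covered stricter peaks, other windows, summit overlap, the number of libraries and each replicate left out. Code was tested on simulated peaks. Calculations used Python 3.11.15 with pandas 2.3.3 and numpy 2.4.6.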

Additional observations from a re-analysis of the deposited data

How the results depend on the processing

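The count of 12 members called in at least 2 libraries lay between 8 and 12 under stricter peaks, other windows and summit overlap. Under those settings 1.91 to 3.95% of all genes were called. With a replicate left out the count lay between 10 and 11, against 2.26 to 2.81% of all genes. With any library it was 21, against 8.67%. With -log10 q of at least 5 it was 8, against 1.91% of all genes. TRA2B, SRSF3, HNRNPA2B1, HNRNPA3, HNRNPC, HNRNPF, HNRNPLL and HNRNPU were called under each of the 11 settings for peaks, windows and replicates, HNRNPR under 9, HNRNPH1 under 7, HNRNPH3 under 5 and DDX5 under 2. Members with a peak near the start numbered 8 with any listed start, 12 with any library and 4 to 6 with a replicate left out. With a window of 0, 250 or 2000 bp there were 3, 3 and 9. The shares of all genes under these settings are not given here.

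With -log10 q of at least 5, fold of at least 5 and the strongest 1000 peaks, in this order, the member peaks per library were 17, 22.7 and 18, the median fold percentile 62.4, 47.4 and 55.9, and the median width 484, 395 and 419.5 bp; with -log10 q of at least 3 the width was 354 bp. The percentile was 48.2 by -log10 q. Summits inside the gene made up 80.6%, 85.0% with -log10 q of at least 5, 89.7% with fold of at least 5 and 71.8% by the nearest listed start. Overlap with another library was 65.4%, against 61.9% of all peaks, both as means over the libraries. It was 76.6% with -log10 q of at least 5, 75.5% among the strongest 1000 and 58.1% with at least 50% of the peak covered. With a replicate left out it was 56.1 to 63.6%. The widths, inside shares and overlap of all peaks under these other settings are not given here, so the shifts are not particular to the members.

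Without TRA2B and HNRNPF, a choice made after seeing the data, there were 23.7 peaks per library, at a median percentile of 49.6 and with 73.4% inside the gene. The 12 other splicing genes became 19 with any library, 6 with 3 libraries and 6 with overlapping peaks. Of all genes, 8.67, 1.90 and 3.27% were called in these ways. There were 5 with -log10 q of at least 5, 6 with fold of at least 5 and 6 among the strongest 1000. In this order, 1.91, 2.04 and 2.04% of all genes were called. With a replicate left out there were 6 to 10 (6 without replicate 2), against 2.26 to 2.81% of all genes. No paired analysis was possible because only the V5 group had peak lists and no result comes from a test between groups. Depth is unknown, so a gene without a peak may lie below what these libraries could detect.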

Other observations

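Several of these genes have copies elsewhere in the genome, which can share reads with them. The gene table lists 141 pseudogenes named for a member by its symbol, P and a number, 75 of them for HNRNPA1, 17 for HNRNPA3 and 9 for HNRNPC. No V5 list had a peak over any of the 141 or within 1000 bp of them. The share of all pseudogenes with a peak is not given here, and whether reads were shared was not tested. Of the 107 member peaks, 17 also lay within 1000 bp of another annotated gene. The members called in at least 2 libraries had a median span of 17427 bp, and those without a peak 14844.5 bp.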
